A study of Mus musculus with 48 samples.

Results

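Among livers of 21-day-old mouse pups whose dams had drunk cadmium, 4 of 12 libraries carried less of the fetal imprinted RNA H19 than the rest, and the transcripts that differed between these 4 weak and 8 strong responders are described here. The classes were chosen by a measured value: a library with H19 (ENSMUSG00000000031) under 1000 CPM (read counts scaled to a common library size, here by the column total) was called weak. They are 12 of the 48 libraries of the series. The weak responders are male replicates 31, 35 and 36 and female replicate 41, with H19 at 906, 342, 740 and 484 on this scale. The strong responders are male replicates 26, 29 and 30 and female replicates 39, 42, 46, 47 and 48, from 1392 to 3729 with a median of 1955. Replicate 31, at 906, and replicate 26, at 1392, lie nearest to the limit. H19 chose the classes and is left out of every count below.

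All pups were C57Bl/6J x CAST/EiJ hybrids. Exposed dams were given water with 50 ppm cadmium chloride (CdCl2) from 4 weeks of age, through mating at 9 weeks with CAST/EiJ males, and until the pups were 10 days old; control dams were given 0 ppm. Livers at postnatal day (PND) 21 came from 6 male and 6 female exposed pups and 6 male and 6 female controls, and 12 control livers at PND0 served for age. The exposed PND21 livers had thus been without maternal cadmium water since PND10. The labels name no litter or dam; a difference between the classes and one between litters cannot be told apart, and p-values measure the spread between pups. The study's title names Zac1 (Plagl1), an imprinted zinc finger factor, and fatty liver.

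The fetal liver makes blood cells and exports alpha-fetoprotein. Around and after birth, hepatocytes come to divide less, silence fetal genes such as Afp, H19 and Igf2 and switch on adult enzymes. Blood formation meanwhile moves to bone marrow. Maturing neutrophils fill their granules with antimicrobial proteins, and the mRNAs for these proteins are made mainly in bone marrow precursors and much less in circulating cells. In a bulk liver library, fewer cells of a type and less RNA per cell cannot be told apart.

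Total counts ran from 63.9 to 91.4 M (mega) in weak, 57.5 to 91 in strong and 61.4 to 83.8 in control PND21 libraries. Mitochondrial transcripts took 4.31% to 5.06%, 4.09% to 5.45% and 3.60% to 4.55% of counts in the same order. Albumin, the defining transcript of hepatocytes, was at 92810 to 103400 CPM of the total in weak, 94740 to 109000 in strong and 93320 to 105200 in control libraries. Below, CPM values of genes are scaled by TMM (trimmed mean of M-values) over the 24 PND21 libraries. Sums over lists are in CPM of the column total. Strong female replicate 42 stood apart from the other strong responders: it had the lowest strong values of neutrophil genes such as Ngp and the highest summed unfolded protein response, 5103 CPM against at most 2756 in the other 7. Counts of genes that kept the classes apart are given with all libraries, and also without replicate 42 where they moved by over 1.5 times.

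Across the genome, the transcripts that followed the grading were mainly ones lower in the weak responders. A gene was counted as following it when all 4 weak libraries lay on 1 side of all 8 strong ones. Of 18016 genes compared, 371 (2.06%) were lower in weak responders by this rule and 163 (0.905%) were higher. With a difference of at least 2-fold as well, 91 (0.505%) were lower and 21 (0.117%) were higher. Since the same libraries chose the classes, these counts describe the 12 livers and no p-value is given. Of the 91, 28 reached 5 CPM in at least 1 exposed library and 28 stayed under 1 CPM in all of them; of the 21, these numbers were 4 and 13. The median difference over all genes was -0.02 on the log2 scale.

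The counts leaned on single libraries. Without strong female replicate 42, 830 genes (4.61%) lay lower and 401 (2.23%) higher in all weak libraries. Of these, 205 (1.14%) were lower and 62 (0.345%) higher by the 2-fold rule, and 90 of the 91 and all 21 of the full set were among them. Leaving out weak male replicate 31 gave 152 and 59 genes, male replicate 35 gave 144 and 37, male replicate 36 gave 169 and 52, and weak female replicate 41 gave 104 and 32. Fewer libraries in a class make it easier for the classes not to overlap. Among the 6 males alone, 3 weak and 3 strong, 500 genes were lower and 258 higher.

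Alpha-fetoprotein and granule genes of neutrophils had the largest negative differences among named genes whose higher class averaged 5 CPM or more. The start regions of Afp and of the granule genes Ngp and Ltf are shown because their differences are among the largest. Each is the C57BL/6J reference from RefSeq (GRCm38.p6, + strand), from 250 bases before to 50 after the annotated start, at chr9:110419558-110419857 for Ngp, chr9:111019042-111019341 for Ltf and chr5:90490464-90490763 for Afp. Capitals mark letters that match TTGCNNAA, the core of a C/EBP factor site, on either strand, and in Afp also GTTAAT, a half-site of the hepatocyte factor HNF1; the 2 patterns do not overlap there.
Ngp: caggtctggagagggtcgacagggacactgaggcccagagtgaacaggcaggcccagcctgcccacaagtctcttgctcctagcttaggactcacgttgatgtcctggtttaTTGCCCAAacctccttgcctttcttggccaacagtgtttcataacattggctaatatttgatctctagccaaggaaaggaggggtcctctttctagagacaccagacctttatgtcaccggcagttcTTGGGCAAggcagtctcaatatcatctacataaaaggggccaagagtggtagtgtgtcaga
Ltf: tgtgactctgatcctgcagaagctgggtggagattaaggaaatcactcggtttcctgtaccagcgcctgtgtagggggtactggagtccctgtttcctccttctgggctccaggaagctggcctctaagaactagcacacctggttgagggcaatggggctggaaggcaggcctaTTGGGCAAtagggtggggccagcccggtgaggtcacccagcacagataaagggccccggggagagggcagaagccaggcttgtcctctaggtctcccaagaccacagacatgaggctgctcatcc
Afp: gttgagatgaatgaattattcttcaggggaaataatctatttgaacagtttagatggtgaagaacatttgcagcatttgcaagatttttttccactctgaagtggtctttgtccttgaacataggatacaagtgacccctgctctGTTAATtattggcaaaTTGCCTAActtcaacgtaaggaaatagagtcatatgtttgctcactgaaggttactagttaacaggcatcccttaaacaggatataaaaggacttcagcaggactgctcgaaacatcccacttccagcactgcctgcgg
C/EBP factors act in both granulocytes and hepatocytes. Of the 12 neutrophil genes on the list below that followed the grading at least 2-fold, 11 had a start region in the table, and 6 of these (Fcnb, Ltf, Mmp8, Ngp, Retnlg and S100a9) held TTGCNNAA, against 10.8% of 32851 start regions. GAGGAAGT, the core of a PU.1 site that other ETS factors share, stood in 4 of the 11 (Mmp8, Mpo, Prtn3 and S100a8) and in 3.2% of all. The letters AGATAA, which the GATA factors of red cell precursors bind, stood in 3 of the 11 and in 11.2% of all. The HNF1 half-site stood in 1 of the 11 and in 7.1% of all. Among all 65 start regions found for the 91 genes, TTGCNNAA stood in 12 and GAGGAAGT in 12. Both strands were searched for all 4 patterns, which were chosen with the genes known, and a match describes letters only.

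Afp (ENSMUSG00000054932), the main plasma protein of the fetus, was at 53.7, 27.97, 34.1 and 37.6 CPM in weak replicates 31, 35, 36 and 41. In the strong responders it ran from 99.2 to 507 CPM with a median of 148, and in controls from 6.53 to 31.9 with a median of 8.67. The weak libraries lay below every strong one and overlapped the controls only through replicate 35, which was below the highest control. The weak minus strong difference was -2.47 ± 0.52 (log2, SE). Against the same 12 controls, the weak responders differed by 1.81 ± 0.40 and the strong ones by 4.28 ± 0.36. In control livers the Afp change from PND0 to PND21 was -10.37 ± 0.32 on the log2 scale (adjusted p = 2.6e-19, edgeR).

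Cd24a (ENSMUSG00000047139), a surface protein of hepatic progenitors and of blood cells, was at 14.8, 11.2, 12.7 and 9.84 CPM in weak replicates 31, 35, 36 and 41. It ran from 17.9 to 35.1 CPM in strong responders, with a median of 22.8, and from 2.94 to 5.15 in controls. The 3 classes did not overlap, and the weak minus strong difference was -1.03 ± 0.18. Ahsg, which encodes the plasma protein fetuin-A, was at 16810 to 21070 CPM in weak and 23280 to 27070 in strong responders against 14090 to 16950 in controls, a weak minus strong difference of -0.38 ± 0.07. The RNA-binding protein gene Igf2bp3 differed by -0.27 ± 0.10. These 4 were the members of a list of 21 fetal hepatocyte genes that followed the grading, 2 of them at least 2-fold. Of all genes, 2.06% and 0.505% were lower by these rules. The list's median was -0.38 and 17 of 21 differences were negative. The list summed to 18720 to 22980 CPM in weak and 24480 to 27870 in strong responders. Ahsg alone made up most of this sum, so the sum mainly repeats that gene. Its age change in control livers was -0.09 ± 0.06 and did not pass (adjusted p = 0.19, edgeR). Gpc3, a proteoglycan of fetal liver, overlapped between the classes (-0.41 ± 0.22) and was above all controls in both.

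**Figure D1:**
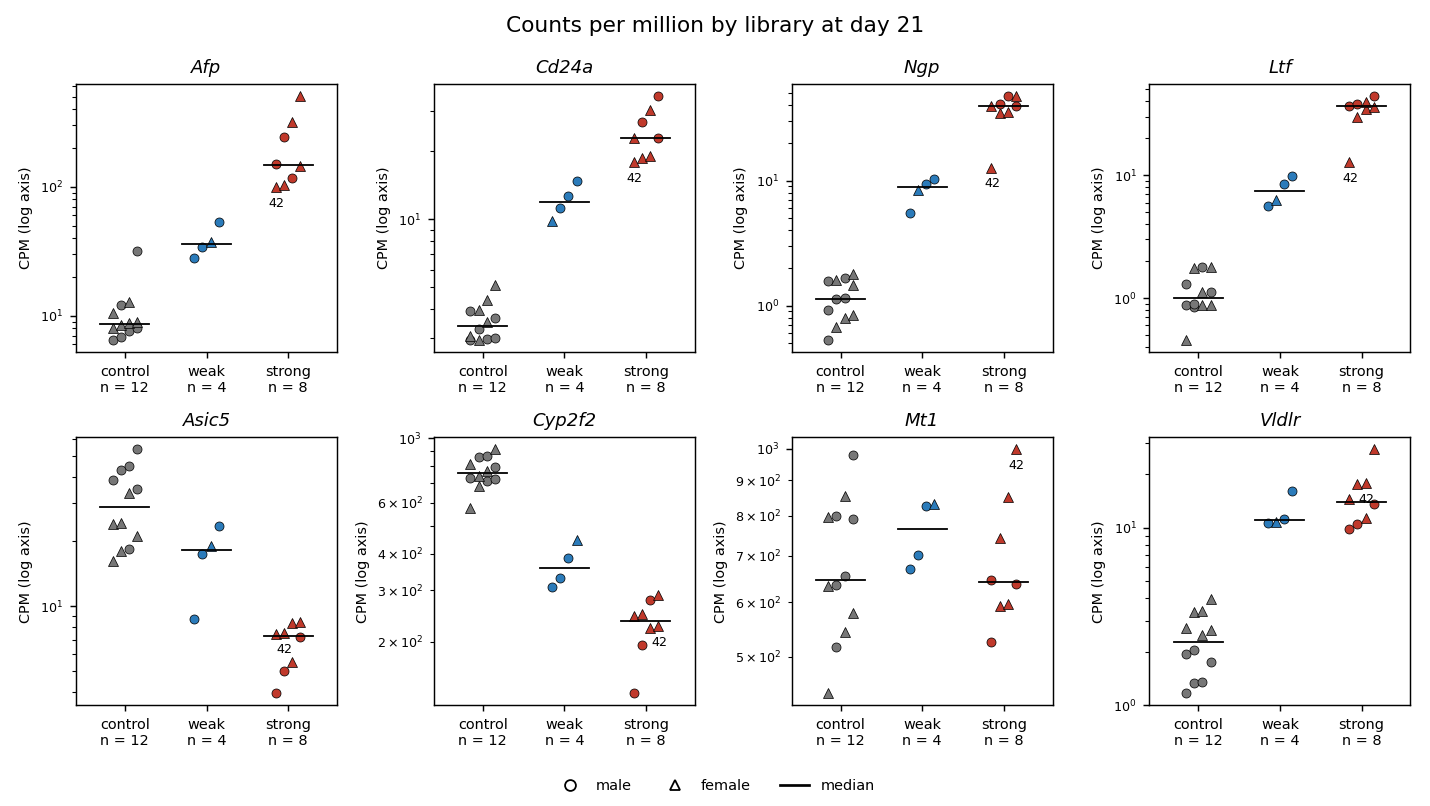
CPM of 8 genes in each PND21 library (log axes that do not start at 0), by class; circles are males, triangles females, lines medians, and 42 marks strong female replicate 42. Afp, Cd24a, Ngp and Ltf separate the classes with weak below strong, Asic5 and Cyp2f2 with weak above strong, while Mt1 and Vldlr overlap between weak and strong.

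The granule genes of neutrophils were lower in the weak responders as a block. Ngp (ENSMUSG00000032484), neutrophilic granule protein, was at 10.3, 5.46, 9.46 and 8.44 CPM in weak replicates 31, 35, 36 and 41. In strong responders it ran from 12.7 in female replicate 42 through a median of 39.5 to 47.6 CPM, and in controls from 0.535 to 1.78 with a median of 1.14. The weak libraries thus lay between the controls and the strong responders without overlap, and replicate 42 was closer to them than to the next strong library, at 35 CPM. The weak minus strong difference was -2.19 ± 0.32. Weak responders differed from controls by 2.80 ± 0.27 and strong ones by 4.99 ± 0.24.

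Ltf (ENSMUSG00000032496), the iron-binding granule protein lactoferrin, was at 8.47, 5.62, 9.78 and 6.30 CPM in weak replicates 31, 35, 36 and 41 and from 12.8 to 44.4 CPM in strong responders with a median of 36.3. Controls ran from 0.458 to 1.80 CPM, below all exposed libraries, and the weak minus strong difference was -2.24 ± 0.31. The cathelicidin gene Camp differed by -2.33 ± 0.31 and the neutrophil surface gene Cd177 by -2.30 ± 0.37. S100a8 and S100a9, the calprotectin subunits, are next to each other on chromosome 3 with 0 protein-coding genes between them and differed by -1.98 ± 0.26 and -1.95 ± 0.27. Further down came the chitinase-like gene Chil3 (-1.87 ± 0.26), myeloperoxidase (Mpo, -1.73 ± 0.28), neutrophil collagenase (Mmp8, -1.64 ± 0.32) and gelatinase B (Mmp9, -1.60 ± 0.19). Mmp9 was the one of these in which weak responders overlapped the controls, at 1.84 to 2.85 against 1.49 to 2.46 CPM.

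Of 22 neutrophil genes on the list, 12 followed the grading, all at least 2-fold, against 0.505% of all genes. Of the 22 differences 21 were negative, with a median of -1.64. The exception was Lcn2 (0.19), which hepatocytes also make in inflammation. The list summed to 73.9 to 152 CPM in weak, 222 to 336 in strong and 15.95 to 66.3 in control libraries. Its median difference from controls was 2.53 in weak and 4.34 in strong responders. Without replicate 42, 19 of the 22 followed the grading at least 2-fold, against 1.14% of all genes. Replicate 42 was set apart partly for its low values of neutrophil genes, so this rise follows in part from that choice. In control livers all 22 genes fell from PND0 to PND21.

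Erythroid, megakaryocyte and eosinophil genes leaned the same way with more overlap between the classes. All 28 erythroid genes differed in the negative direction, with a median of -1.27, but only Gata1, the lineage's transcription factor, kept the classes apart, at 0.330 to 0.654 CPM in weak and 0.819 to 3.48 in strong responders (-1.80 ± 0.47). Without replicate 42, 13 of the 28 did, 11 of them at least 2-fold, against 4.61% and 1.14% of all genes. Replicate 42 had the lowest strong erythroid sum, so this rise follows in part from leaving it out. The erythroid sum was 1064 to 1292 CPM in weak responders, within the control range of 1052 to 1370, and 1025 (replicate 42) to 2915 in strong ones. The sum does not show the list's typical gene: the median log2 difference from controls was 1.21 in weak and 2.64 in strong responders. Strong males had 2153 to 2915 CPM and strong females other than replicate 42 had 1390 to 1745. All 15 megakaryocyte and mast cell genes differed in the negative direction, and the platelet glycoprotein gene Gp9 was among those that kept the classes apart (-1.69 ± 0.54).

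Eosinophil genes had the lowest median of the lists with 8 or more genes compared, at -2.09 over 8 genes, yet 0 of 8 kept the classes apart. The granule gene Prg2 ran from 0.563 to 2.23 CPM in weak and 1.96 to 16.04 in strong responders. Without replicate 42, 3 of the 8 followed the grading, all at least 2-fold, against 1.14% of all genes. Replicate 42 also had the lowest strong eosinophil sum, 5.72 CPM with the next at 9.55. The rise thus follows in part from leaving it out. Macrophage and Kupffer cell genes had 20 of 20 negative differences with a median of -0.34. Of these 20, 0 kept the classes apart, or 4 without replicate 42, against 2.06% and 4.61% of all genes lower in weak responders. B lineage genes had a median of 0.03 and 6 of 14 negative differences; T and NK cell genes had a median of -0.14, and 0 of 12 kept the classes apart, or 1 without replicate 42. Endothelial genes were level, at 0.05.

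**Figure D2:**
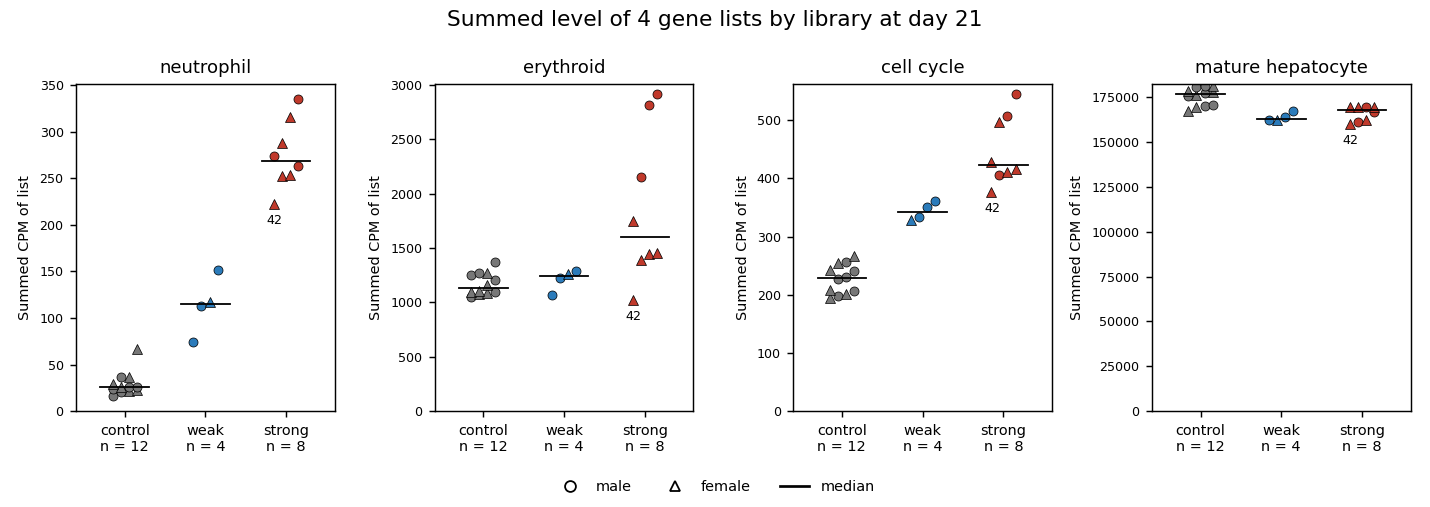
Summed CPM of 4 gene lists in each PND21 library (axes from 0), by class; circles are males, triangles females, lines medians, and 42 marks strong female replicate 42. The neutrophil and cell cycle sums do not overlap between classes, the weak erythroid sums lie in the control range, and the mature hepatocyte sums overlap between weak and strong. Over single erythroid genes the median log2 difference from controls was 1.21 in weak responders.

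Proliferation genes were intermediate in the weak responders. Ccnb2, a cyclin of mitosis, was at 3.35 to 4.11 CPM in weak and 5.95 to 10.6 in strong responders, against 1.48 to 5.13 in controls (-1.11 ± 0.25). Ccna2 (-0.84 ± 0.25), the mitotic transcription factor gene Foxm1 (-0.79 ± 0.26) and the survivin gene Birc5 (-0.75 ± 0.29) also kept the classes apart. In all, 6 of 32 cell cycle genes did, 1 at least 2-fold, against 2.06% and 0.505% of all genes lower in weak responders. Of the 32 differences 29 were negative. Without replicate 42, 10 of the 32 did, 2 at least 2-fold, against 4.61% and 1.14%. Replicate 42 had the lowest strong sum of this list, so this rise follows in part from leaving it out. The list summed to 329 to 362 CPM in weak, 376 to 545 in strong and 195 to 267 in control libraries, with no overlap. Both blood precursors and hepatocytes divide in young liver, and which cells carry these transcripts was not tested.

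The imprinted network around Plagl1 followed the grading only in part. Igf2 (ENSMUSG00000048583), the fetal growth factor gene next to H19, was at 0.41, 0.12, 0.61 and 0.24 CPM in weak replicates 31, 35, 36 and 41. It ran from 0.43 in male replicate 26 to 4.96 in female replicate 47 among strong responders, with a median of 2.13, so a single strong library overlapped the weak ones (-2.45 ± 0.54). Dlk1 (ENSMUSG00000040856), a Notch-like protein of hepatoblasts, ran from 0.481 to 1.12 CPM in weak and 0.766 to 2.33 in strong responders (-1.21 ± 0.34), and both classes were above all controls. Plagl1 was at 2.84 to 4.21 and 4.10 to 7.59 CPM (-0.49 ± 0.19), Mest, a hydrolase gene, at 9.43 to 16.8 and 13.1 to 29.6 (-0.75 ± 0.23), and the cell cycle inhibitor gene Cdkn1c at 6.33 to 8.44 and 6.65 to 18.7 (-0.77 ± 0.22). Dlk1, Mest and Cdkn1c overlapped through replicate 42 alone and kept the classes apart without it. Of 21 network genes 18 differed in the negative direction, with a median of -0.49, and 3 did not overlap: Ppp1r9a, a neuronal scaffold gene (-0.66 ± 0.17), Sgce, epsilon-sarcoglycan (-0.34 ± 0.08), and Gnas, a G protein subunit gene (-0.23 ± 0.05). Without replicate 42 this number was 6. The share of all genes lower in all weak libraries was 2.06%, or 4.61% without replicate 42.

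Peg10, a retrotransposon-derived imprinted gene, went with neither class. It was at 6.51, 5.42, 7.48 and 7.43 CPM in weak replicates 31, 35, 36 and 41 and from 4.03 to 13.2 CPM in strong responders with a median of 7.94, all above the control range of 1.29 to 3.85. The weak minus strong difference was -0.03 ± 0.22 (0.36 in males alone), and each class differed from controls by a similar size, 1.63 ± 0.19 and 1.66 ± 0.16. Peg10 lies beside Sgce and Ppp1r9a in an imprinted cluster, where the last 2 did follow the grading.

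Fewer transcripts were higher in the weak responders, and over the 21 of at least 2-fold the median difference from controls was 0.12 in weak and -1.23 in strong responders. Cyp2f2 (ENSMUSG00000052974), a periportal cytochrome P450 of mature hepatocytes, was at 331, 386, 307 and 445 CPM in weak replicates 31, 35, 36 and 41. It ran from 133 to 290 CPM in strong responders with a median of 236, and from 577 to 914 in controls. The 3 classes did not overlap, and the weak minus strong difference was 0.72 ± 0.14. Gls2, the liver glutaminase, ordered the classes in the same way at 272.4 to 320.1, 179.4 to 271.7 and 366.9 to 443.9 CPM (0.34 ± 0.09). These were the 2 of 49 mature hepatocyte genes that followed the grading, while 0.905% of all genes were higher by this rule. Without replicate 42, 2 were higher and 2 lower in weak responders, against 2.23% and 4.61% of all genes. The list's median difference from controls was -0.46 in weak and -0.47 in strong responders, and its sums overlapped.

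Asic5 (ENSMUSG00000028008), an acid-sensing ion channel family member, was at 17.5, 23.5, 8.74 and 19.1 CPM in weak replicates 31, 35, 36 and 41. It ran from 3.96 to 8.44 CPM in strong responders and from 16.3 to 53.4 in controls, so replicate 36 was close to the strong class and the other 3 overlapped the controls. The difference of 1.27 ± 0.31 was the largest in this direction above 5 CPM among genes with established names. Amigo1, a cell adhesion gene, was at 11.2 to 15.2 CPM in weak and 5.90 to 10.8 in strong responders (0.90 ± 0.11), with controls at 10.4 to 13.9. Others were the ceramide kinase-like gene Cerkl (0.78 ± 0.32), the zinc finger gene Zfp142 (0.71 ± 0.16), the gasdermin gene Gsdma3 (0.68 ± 0.14), Tnfaip8l1 (0.65 ± 0.13) and Lonrf3 (0.65 ± 0.18). In Gsdma3 the weak responders were above all controls, at 70.7 to 93.8 against 38.3 to 59.7 CPM, and the strong ones overlapped the controls.

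Growth, matrix and metabolic genes gave single members. Igfbp2, which binds insulin-like growth factors, was at 953 to 1248 CPM in weak, 1317 to 1866 in strong and 371 to 729 in control libraries (-0.47 ± 0.14). The hedgehog-binding gene Hhip (-0.71 ± 0.13) and the reelin gene Reln (-0.38 ± 0.09) of hepatic stellate cells, and the matrix genes Col14a1 (-0.54 ± 0.12) and periostin (Postn, -0.46 ± 0.09), kept the classes apart. Of 24 matrix genes 22 differed in the negative direction, with a median of -0.38. Of the 24, 2 kept the classes apart, or 7 without replicate 42, against 2.06% and 4.61% of all genes lower by this rule. Fbp1, the gluconeogenic fructose bisphosphatase, was at 536 to 626 CPM in weak and 648.5 to 1094 in strong responders (-0.66 ± 0.11), and pyruvate carboxylase (Pcx) differed by -0.22 ± 0.09. The steroid enzyme gene Hsd3b1 was at 3.49 to 14.2 CPM in weak and 17.4 to 55.8 in strong responders, with controls at 3.95 to 25.5 (-1.79 ± 0.53).

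Sex was unequal between the classes, with 3 males among 4 weak and 3 among 8 strong responders, and the fit held a term for sex. Of the 88 genes tested among the 91, 0 differed between control males and females at PND21 by edgeR, 4 had an unadjusted p under 0.05, and 1 passed by DESeq2 and 0 by limma-voom; of all 17526 genes, 87 (0.496%) passed by edgeR. Of the 20 tested among the 21, 0 passed by any of these tools and 3 had an unadjusted p under 0.05 by edgeR. The share of all genes at that unadjusted p was not counted. Whether either set leans on sex was therefore not tested. Cux2, a transcription factor gene, and Cyp3a41a, a cytochrome P450 gene, are on a list of growth hormone and sex-biased genes. They differed between the classes by -1.26 ± 0.48 and -1.26 ± 0.37. In PND21 controls their male minus female differences were -1.56 and -0.43, and neither passed (adjusted p = 0.19 and 0.78, edgeR). Cux2 was at 11.4 to 29.2 CPM in weak and 29.8 to 86.4 in strong responders, with controls at 5.02 to 61.5. The male-biased urinary protein genes Mup3 and Mup20, whose reads close relatives may share, were higher in each weak library than in each strong one. Their fitted differences, 0.38 ± 0.55 and 0.38 ± 0.51, were within 1 SE and turned to -0.08 and -0.17 without weak female replicate 41.

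The position of each liver between the ages was read from control genes alone. In the 24 control livers, genes were kept that averaged at least 5 CPM at either age and changed with age at an adjusted p under 0.05 (edgeR). They also had to keep their direction under another scaling. Of the genes kept, 1015 were at least 4-fold higher at birth and 431 at least 4-fold higher at PND21. For each gene a library's level was placed on a scale from the PND21 control mean (0%) to the PND0 control mean (100%), and the median over genes was taken. On the genes higher at birth, the weak responders stood at 18.4%, 20.5%, 16.9% and 14.2% for replicates 31, 35, 36 and 41. The strong responders ran from 21.2% in replicate 42 to 37.4% in male replicate 30, with a median of 30.2%, and the controls from -3.46% to 4.9%. On the genes higher at PND21, weak responders stood at 5.92% to 15% and strong ones at 11.5% to 19.3%, with overlap. Weak livers were thus nearer to the control profile on birth genes and still outside the control range.

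**Figure D3:**
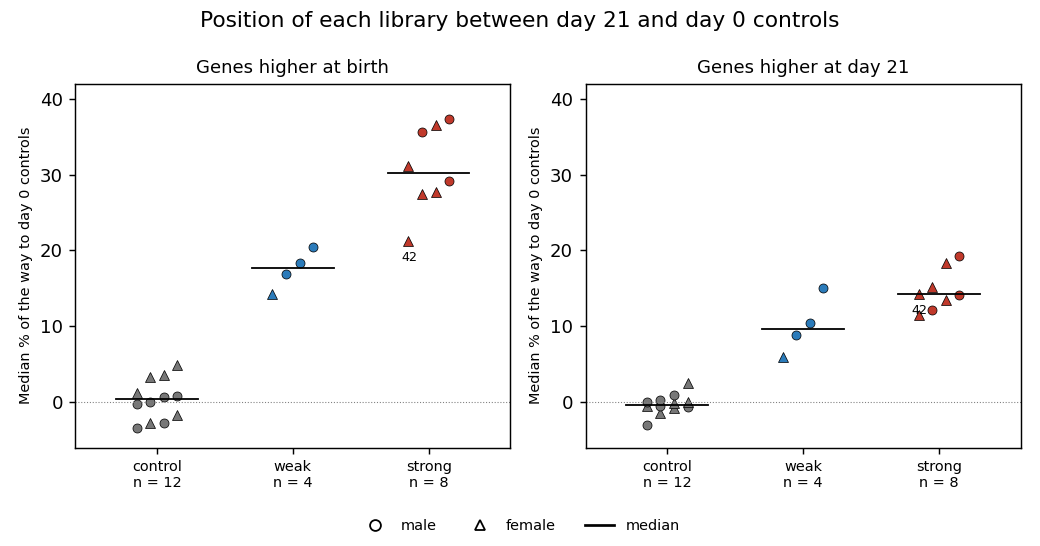
Median position of each PND21 library on the scale from PND21 controls (0%) to PND0 controls (100%). Genes averaged at least 5 CPM at either age and were at least 4-fold higher at birth (left) or at PND21 (right). On the left the weak libraries, 14.2% to 20.5%, lie between the controls and the strong ones, 21.2% to 37.4%; on the right weak and strong overlap.

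The genes that followed the grading were set against the age change in the 24 control livers, which holds no exposed library. Of the 91 lower genes, 90 were tested for age and 83 fell from PND0 to PND21 at an adjusted p under 0.05 (edgeR), 2 rose and 5 did not pass; among all 17666 genes compared in both analyses, 6847 (38.8%) fell and 6753 (38.2%) rose. Their median age change was -4.65 on the log2 scale. Of the 21 higher genes, 15 rose with age and 3 fell, with a median of 1.16. The pattern was not particular to the graded genes. Of 1102 age-tested genes that rose at least 2-fold with cadmium at PND21, 910 fell with age and 66 rose. Of 333 that fell at least 2-fold with cadmium, 260 rose with age and 32 fell. Without replicate 42, 179 of 203 lower genes (88.2%) fell and 47 of 61 higher genes rose. The age change of each gene was measured apart from the classes, but H19, which chose the classes, is itself a gene that falls with age in these controls.

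The cadmium effect used the same exposed libraries and is given beside the classes only. Of 17526 genes tested at PND21, 4063 (23.2%) rose and 3363 (19.2%) fell in exposed livers at an adjusted p under 0.05 (edgeR, 12 against 12 libraries). Of the 88 lower genes tested, 73 rose and 1 fell. The median difference from controls over the 91 was 0.70 in weak and 2.36 in strong responders. In 25 of the 91 all weak libraries were above all controls, against 730 (4.05%) of all 18016 genes. All strong libraries were above all controls in 61, against 1181 (6.56%). Of the 371 lower genes without the fold limit, all weak libraries were above all controls in 64 (17.3%) and below them in 36 (9.7%). The share below was 4.36% over all genes, and all strong libraries were below the controls in 0 of the 371. For comparison, over the 1156 genes that rose at least 2-fold with cadmium the weak and strong medians were 1.12 and 1.57. Over the 336 that fell at least 2-fold they were -1.28 and -1.51.

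**Figure D4:**
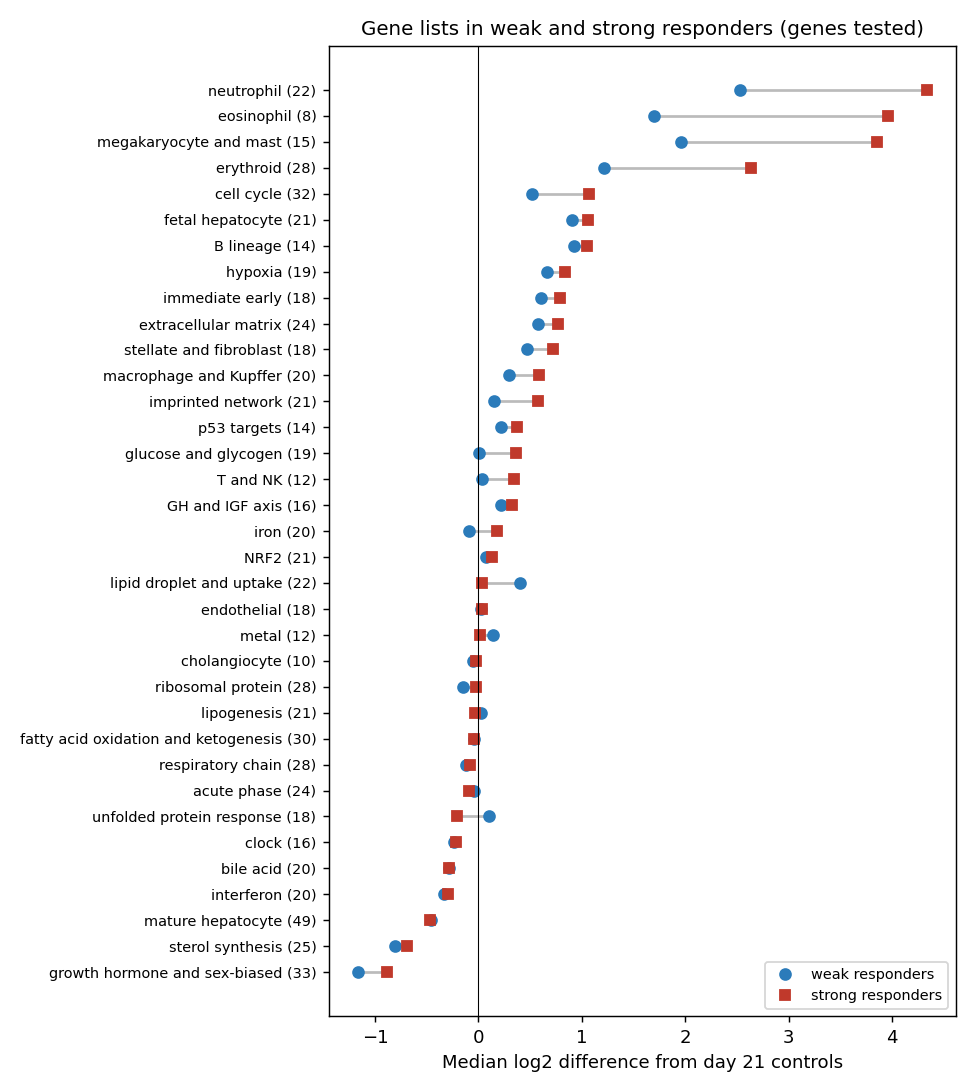
Median log2 difference from the 12 PND21 controls over the genes of each list, for weak (blue circles) and strong responders (red squares), with the number of genes compared in brackets. Both use the same controls; neutrophil (2.53 and 4.34) and eosinophil (1.70 and 3.96) medians lie well apart, B lineage ones (0.93 and 1.05) close together, while mature hepatocyte, lipogenesis and fatty acid oxidation lists nearly coincide.

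Several of the largest cadmium effects differed little between the classes. Vldlr (ENSMUSG00000024924), a lipoprotein receptor gene, was at 10.6 to 16.2 CPM in weak and 9.87 to 27.6 in strong responders against 1.17 to 3.98 in controls, with a weak minus strong difference of 0.00 ± 0.21 and a cadmium effect of 2.68 ± 0.15 (adjusted p = 2.3e-12, edgeR). The growth factor gene Bmp8b had a cadmium effect of 4.91 ± 0.25 and differed between the classes by -0.19 ± 0.32. The fatty acid receptor gene Ffar4 gave 4.63 ± 0.29 and -0.19 ± 0.38, the apolipoprotein gene Apoa4 2.96 ± 0.18 and -0.19 ± 0.32, and the stanniocalcin gene Stc1 2.89 ± 0.44 and -0.01 ± 0.67. The carboxylesterase gene Ces4a fell by 3.44 ± 0.34 on the log2 scale and differed between the classes by -0.23 ± 0.60. These 6 were picked for small class differences, so this is a description, and the SEs leave room for differences of the size seen in several graded genes. Each of the 6 changed sign between the classes under at least 1 alternative, such as Ces4a (0.14 with no sex term) and Apoa4 (0.48 in males alone).

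In lists of metabolism and stress few genes kept the classes apart, as over all genes. Metallothionein genes Mt1 and Mt2, the metal-binding proteins that cadmium induces, differed by 0.13 ± 0.19 and 0.19 ± 0.34, and the cadmium and zinc importer gene Slc39a8 by 0.01 ± 0.08. Of 12 metal, 21 NRF2 (oxidative stress response), 24 acute phase, 20 interferon, 30 fatty acid oxidation and 21 lipogenesis genes, 0 kept the classes apart. Of all genes, 2.06% were lower and 0.905% higher in all weak libraries, so lists this short would hold few or none at that share. Without replicate 42, 1 metal, 1 NRF2, 3 fatty acid oxidation and 2 lipogenesis genes were lower in all weak libraries. In the same setting 1 NRF2 gene was higher, and acute phase and interferon genes stayed at 0. The shares of all genes were then 4.61% lower and 2.23% higher. Sterol synthesis genes were below controls in both classes, with medians of -0.81 and -0.69, and 0 of 25 kept the classes apart. Of 20 bile acid genes only Hsd3b7, a bile acid synthesis enzyme, did (0.37 ± 0.14); without replicate 42, 2 others were lower in all weak libraries. The iron uptake gene Tfrc was at 168 to 345 CPM in weak and 315 to 515 in strong responders (-0.48 ± 0.26).

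Among the 12 control livers, where H19 ran from 21.6 to 329 on the scale of column totals, the grading was not seen at the threshold. Control female replicates 38 and 40 were at 198 and 329 and the others at 73.7 or less, so the upper range rests on these libraries. A slope on log2 H19 with a term for sex was past an adjusted p of 0.05 in 0 of 16453 genes (0%) by edgeR, with 968 at an unadjusted p under 0.05, 0 by limma-voom, and 18 rising and 29 falling by DESeq2. Serpina7 came closest (adjusted p = 0.0587, edgeR); it is the thyroxine-binding globulin gene and is named here after its values were seen. Of the 91 lower genes 61 were tested in controls, and 7 rose and 0 fell with H19 at an unadjusted p under 0.05, against 467 and 501 of all 16453. Cd24a rose by 0.21 ± 0.07 per doubling of H19 (unadjusted p = 0.00755, adjusted p = 0.637), while Ngp (0.00 ± 0.19), Ltf (-0.04 ± 0.20) and Afp (0.15 ± 0.24) gave slopes within 1 SE of 0. H19 spanned a far lower range in controls than in exposed livers, and whether a relation holds at the higher range in unexposed livers was not tested.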

How the data were processed

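Each of the 48 libraries is RNA of 1 pup's liver, made with a kit that keeps strand per the labels' protocols. The authors deposited raw counts, whole numbers of reads for each of 55487 Ensembl genes; FastQC, STAR, HTSeq and DESeq2 are named, without versions, per the submitters' processing notes. No label or header names the build, annotation or strand setting. Reads of overlapping or near-identical genes are uncertain. Symbols were found for 55141 IDs; the other 346 hold 0.0391% of counts.

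In R 4.3.3 with edgeR 4.0.16, genes were filtered by expression, scaled by TMM and fitted with robust quasi-likelihood models, and p-values were adjusted by Benjamini and Hochberg's method across the genes of each test (threshold 0.05). Weak, strong and control PND21 libraries shared 1 fit with a sex term. Age, cadmium and sex used group means, and the slope used 12 controls. The scale between the ages used log2 CPM with a prior count of 2. Members, lists and comparisons were chosen with earlier results of these data known. Named genes are 15 of prior interest, the 12 largest differences each way (at least 5 CPM, no clone or predicted names), up to 4 per list and the 6 largest cadmium effects with a class difference under 0.25. Alternatives used DESeq2 1.42.0 and limma 3.58.1. On simulated data the cadmium fit found 77.6%, 94% and 100% of genes changed 1.5-fold, 2-fold and 4-fold, over 17527 genes, with 4.74% false calls. The rule of no overlap and at least 2-fold between weak and strong found 1.49%, 37.3% and 100% over 18017 genes, with 13.2% false calls. Age found 74.6%, 95.5% and 98.5% over 18808 genes, with 4.79%. For the slope on H19 in controls the planted folds were per doubling of H19, and smaller slopes were not simulated. It found 86.6%, 100% and 100% over 16454 genes, with 8.17%. Planted genes averaged over 1 CPM in each simulation. One control library (PND0 male replicate 3) has PND21 as its age label and was used as PND0.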

Additional observations from a re-analysis of the deposited data

Results flagged for a closer look

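Within the weak and strong responders, 222 sets of values (named genes, list sums and positions between the ages) were searched for a library far from its class by Dixon's ratio, which by chance marks about 1 in 20. The search found 19, and 8 of them were strong female replicate 42.

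Replicate 42 had the lowest strong values of the neutrophil genes Ngp (12.7 CPM, next 35), Ltf (12.8, next 29.9), S100a9 (15.6, next 36.1) and Cd177 (1.8, next 4.8). It also had the highest strong values of Mt2 (965 CPM, next 614) and of the summed unfolded protein response (5103, next 2756), metal (3063, next 2291) and acute phase (55510, next 44530) lists.

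Among strong responders, female replicate 47 stood high in Igf2 (4.96 CPM, next 2.5) and female replicate 48 in Vldlr (27.6, next 17.9). Weak male replicate 36 stood low in the cell cycle genes Ccna2 (5.13 CPM, next 8.14) and Foxm1 (1.5, next 3.12) and high in Hhip (18.2, next 13.9) and Vldlr (16.2, next 11.2). Weak male replicate 31 stood high in Gp9 (0.407 CPM, next 0.172) and low in Pard6b (8.26, next 9.07). Weak male replicate 35 stood high in Cerkl (22.1 CPM, next 18.4) and Tnfaip8l1 (43.7, next 33.3), and weak female replicate 41 low in Gata1 (0.329, next 0.635).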

How the results depend on the processing

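Of 133 counts recomputed under alternatives, 108 stayed within 1.5 times their main value. For the 91 lower and 21 higher genes, requiring 1 CPM throughout either class left 37 and 6, a limit of 1.5-fold gave 188 and 48, males alone gave 500 and 258, and no low-count filter gave 101 and 33; leaving out 1 library at a time gave 85 to 205 and 22 to 62. The slope on H19 in controls gave 18 rising and 29 falling genes by DESeq2 and 1 rising without a filter, and 0 to 3 rising and 0 to 2 falling without 1 control library. Genes that differed by sex in controls, 52 higher in males and 35 in females, became 108 and 99 by DESeq2. The cause of these shifts was not tested, beyond the fewer libraries or genes that some settings hold. Of the 91 lower genes, 82 or 83 fell with age in every age alternative run. The weak minus strong differences of 74 named genes gave 1473 alternative values, of which 1399 moved by at most 1 SD of the weak libraries; Among genes whose classes did not overlap, 2 changed sign, Mup3 (-0.077) and Mup20 (-0.17) without exposed female replicate 41, where leaving out 1 library gave -0.077 to 0.515 and -0.17 to 0.543. Among genes whose classes overlapped, 9 changed sign in 41 values: Peg10, Stc1, Slc39a8, Vldlr, Ces4a, Apoa4, Bmp8b, Ffar4 and Mt2, with main differences of -0.23 to 0.19. Of these values 7 moved by over 1 SD: Ces4a to 0.14 with no sex term, 0.026 by limma-voom and 0.013 without male replicate 36, Vldlr to -0.33 with no sex term, and, in males alone, Peg10 to 0.36, Apoa4 to 0.48 and Slc39a8 to -0.07. No paired analysis was possible because replicate numbers are not shared between groups. With 4 weak responders from 1 sex but 1, and litters unknown, the classes describe these livers only; transcripts under 1 CPM rest on few reads.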
